A study of Mus musculus with 6 samples.

Results

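The 45 genes described here run the mitotic cell cycle: the mitotic kinases and the spindle checkpoint, the cyclin-dependent kinases (CDKs) with their cyclins and inhibitors, the machinery that ends mitosis, centromere and spindle proteins, and the RB and E2F regulators. They were chosen by name, with earlier results of these data known, and all 45 were found among the 54532 genes of the count table. RNA was sequenced from 32D, a cytokine-dependent myeloid cell line of the mouse with the look of myeloblasts, kept with serum and interleukin-3. One group had been transduced with a retrovirus (MSCV-IRES-GFP) carrying mutant human U2AF1 S34F and the other with the same vector carrying human wild-type U2AF1 (WT), and each group had 3 libraries. The mouse's own U2af1 gene was present in both groups, and the labels do not say whether the transduced cells were clones or came from separate cultures, so the spread behind each p-value is that of the libraries and may be technical. Values per library are given below in the order of replicates 1, 2 and 3.

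A dividing cell is driven through its cycle by CDKs. D-type cyclins with Cdk4 and Cdk6 and then E-type cyclins with Cdk2 inactivate RB, which frees E2F factors to switch on the genes of DNA replication. Cyclin A and cyclin B with Cdk1, together with Polo and Aurora kinases, then carry the cell into mitosis, and the anaphase-promoting complex ends mitosis by marking cyclin B and securin for destruction. Many genes of the second part of the cycle are transcribed only then, through promoters that hold CCAAT boxes and an element called CHR (cell cycle genes homology region), bound by the MuvB complexes. Factor-dependent myeloid lines such as 32D divide only while cytokine is present, so these genes report on how the cells are growing.

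None of these genes passed the test for a difference between S34F and WT cells. Of the 45 genes, 44 had enough counts to be tested, and edgeR's quasi-likelihood test called 0 of them at a Benjamini-Hochberg adjusted p under 0.05, where it called 2.18% of all 13444 genes tested (1.58% higher and 0.595% lower in S34F). The unadjusted p was under 0.05 for 11 genes, of which 7 had a positive and 4 a negative log2 fold change. That is 25.0% of the 44, against 22% of all genes tested (11.9% higher and 10.1% lower). Leaving out S34F replicate 1 gave 5 such genes and leaving out S34F replicate 3 gave 4, where 16% and 18% of all genes had such a p. Leaving out WT replicate 2 gave 2 and leaving out WT replicate 3 gave 3, where the shares of all genes were 12.8% and 12.9%. The count rose to 14 without S34F replicate 2 and to 13 without WT replicate 1, against 24.1% and 30.1% of all genes. The count was 4 with the GC trend of each library removed, against 19.5% of all genes. DESeq2 and limma-voom also called 0. The smallest adjusted p was 0.120, that of Aurka, and the 44 log2 fold changes lay between -0.49 and 0.39 with a median of 0.08, beside 0.00052 over all genes tested. The sign was positive for 29 genes (65.9%), against 50.1% of all genes tested. Without S34F replicate 2 the median was -0.0044 and 22 of the 44 signs were positive. Without S34F replicate 1 it was 0.12 and 32 were positive. With each of the other libraries left out the median was between 0.050 and 0.074. The median thus moved most with S34F replicates 1 and 2, in opposite directions.

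The 95% intervals of all 44 differences lay between -0.96 and 0.74 on the log2 scale in the main fit. In that fit a doubling or a halving was outside the interval of every gene. The bound of -0.96 was that of Cenpf and lay close to a halving. The Cenpf estimate ran from -0.67 to -0.35 over the 16 alternatives described below, whose intervals are not given here. Of all 13444 genes tested, 9416 had intervals between -1 and 1. The fit takes WT replicates 2 and 3 as separate, although they were the most alike of all pairs. With those summed, the standard error of Aurka went from 0.12 to 0.16. The median interval reached 0.31 to either side of its estimate. These intervals are for 1 gene at a time, and estimates of up to 0.49 in size did not pass the test adjusted over all genes. In bulk RNA, fewer dividing cells and less RNA of a gene per cell cannot be told apart.

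**Figure D1:**
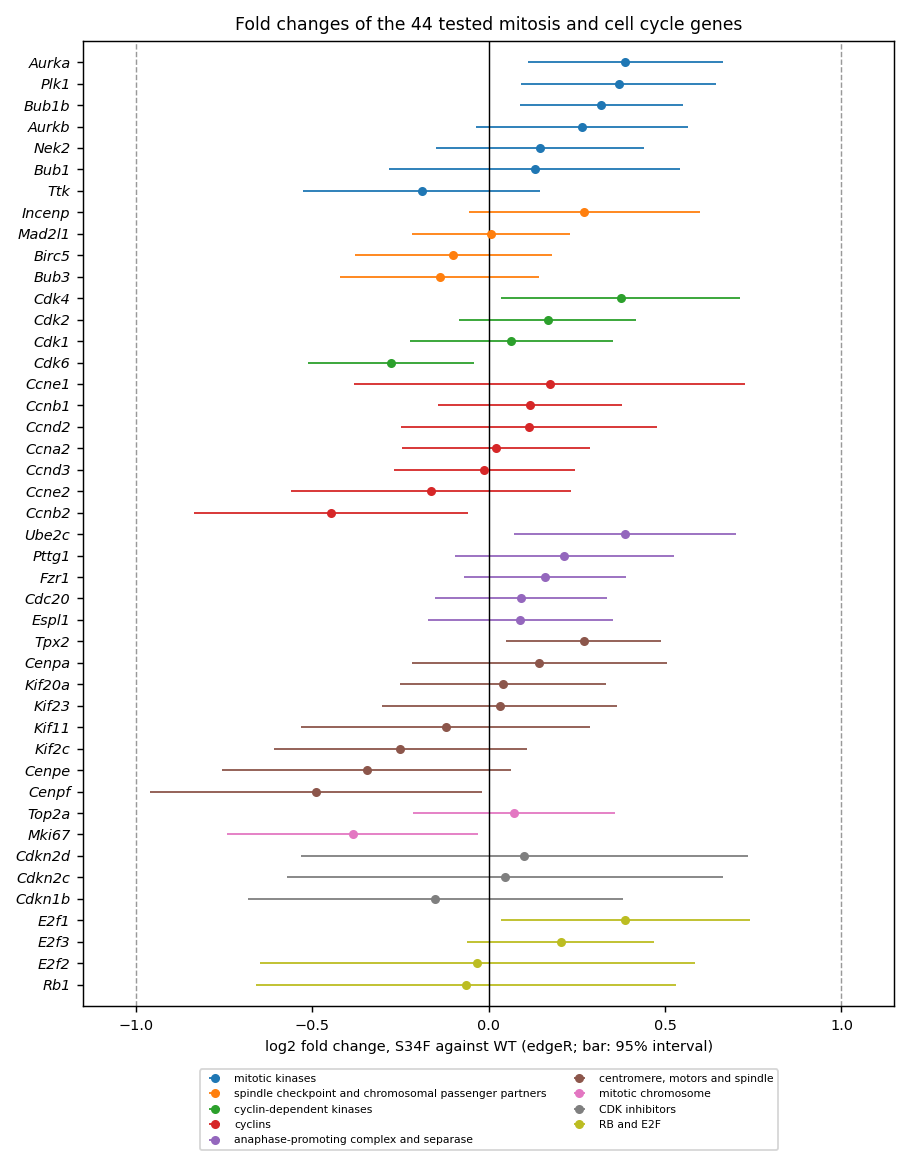
Log2 fold change of S34F against WT (x axis) for each of the 44 tested genes (y axis), coloured by role, with bars for the 95% interval of the edgeR fit and dashed lines at -1 and 1. No interval reaches either dashed line, and the point estimates run from -0.49 for Cenpf to 0.39 for Aurka, Ube2c and E2f1.

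Gene counts totalled 16509899 to 19129250 per library, and 1 count equalled 0.0520 to 0.0608 CPM (counts scaled to a common library size, with TMM factors that correct for differences in library composition). The biological coefficient of variation was 3.21% between WT replicates 2 and 3, whereas other pairs of the same group had 16.5% to 21.5%. Of 10 myeloblast markers, 7 lay above 1 CPM in every library. Ctsg, Spi1, Ptprc, Il3ra and Csf2rb were among them, while Elane, Kit and Cd34 had at most 0.487 CPM. The 10 markers summed to 1745, 2047 and 2036 CPM in S34F and 1387, 1619 and 1633 CPM in WT, without overlap. Taken singly, Ctsg, Il3ra and Spi1 were higher in all S34F libraries, whereas Csf2rb, Ptprc, Mpo and Prtn3 overlapped between the groups. Prtn3 was at 33.5, 39.7 and 22.3 CPM in S34F and 51.7, 37.2 and 37.4 CPM in WT. Csf2rb was at 575, 758 and 831 CPM in S34F and 634, 570 and 577 CPM in WT. The 7 B and T cell markers summed to at most 0.564 CPM. Monocyte and macrophage markers summed to 304, 361 and 262 CPM in S34F and 235, 243 and 236 CPM in WT, with 3 of 8 at 0 in every library, among them C1qa. The 8 erythroid and megakaryocyte markers summed to 749, 813 and 874 CPM in S34F and 586, 617 and 617 CPM in WT, nearly all of it Itga2b and Pf4, while Hbb-bt was at 0 in every library. The part of these differences in the results below was not tested.

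The promoters show how these genes are related in sequence. RefSeq start sites (build GRCm38.p6) were given for 36 of the 45 genes, with 250 bases before and 50 bases after each start. The 97 bases from 100 to 4 before the start are printed for 8 genes, chosen because they show the promoter types and because their levels are given below. Capitals mark TTTGAA (the CHR core) and CCAAT, or their reverse complements TTCAAA and ATTGG, and in Cdk1 also the GCGG of the tandem element described next.
Cdk1 (chr10:69352916-69353012, minus strand): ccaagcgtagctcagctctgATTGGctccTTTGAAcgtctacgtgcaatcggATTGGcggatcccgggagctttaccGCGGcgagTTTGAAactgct
Cdc20 (chr4:118437347-118437443, minus strand): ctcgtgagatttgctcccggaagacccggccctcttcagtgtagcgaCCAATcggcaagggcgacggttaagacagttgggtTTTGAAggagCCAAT
Aurka (chr2:172370574-172370670, minus strand): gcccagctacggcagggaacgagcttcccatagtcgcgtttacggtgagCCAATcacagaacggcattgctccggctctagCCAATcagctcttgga
Plk1 (chr7:122159335-122159431, plus strand): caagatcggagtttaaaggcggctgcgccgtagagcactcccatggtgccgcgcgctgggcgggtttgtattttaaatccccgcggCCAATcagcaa
Ube2c (chr2:164769829-164769925, plus strand): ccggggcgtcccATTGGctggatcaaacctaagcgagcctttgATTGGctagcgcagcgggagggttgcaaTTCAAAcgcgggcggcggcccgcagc
Ccnb2 (chr9:70421558-70421654, minus strand): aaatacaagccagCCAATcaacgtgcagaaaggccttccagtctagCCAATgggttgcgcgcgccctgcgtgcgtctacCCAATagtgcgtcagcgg
Cdk4 (chr10:127063435-127063531, plus strand): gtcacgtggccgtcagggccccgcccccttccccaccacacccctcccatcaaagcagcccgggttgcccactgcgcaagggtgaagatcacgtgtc
Cdk6 (chr5:3343793-3343889, plus strand): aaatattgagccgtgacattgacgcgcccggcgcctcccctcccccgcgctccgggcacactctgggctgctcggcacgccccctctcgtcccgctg

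The letters TTTGAA, searched on both strands of the whole windows, were in 19 of the 36 genes (52.8%), against 20.2% of the 27025 genes with a window. By textbook timing, they were in 16 of 24 genes that peak in G2 or mitosis and in 3 of 12 others. CCAAT was in 28 of 36 genes (77.8%), against 41.1% of all. The tandem element, GCGG followed by 4 bases of any kind and TTTGAA, is a CHR with the cell cycle-dependent element before it, and was in Cdk1 and Cenpf, 2 of 36 genes (5.56%), against 0.0851% of all. It holds a TTTGAA that is counted above as well. The E2F letters (TTT, then GG, CC, CG or GC, then CGC) were in 4 of 36 genes (11.1%), against 2.6% of all. Aurka and Plk1 hold TTTGAA after the start, in the part that is not printed, Ccnb2 holds it outside the printed bases on both sides, and the Cdk4 and Cdk6 windows hold none of the letters searched. Genes with the same letters had log2 fold changes of either sign, as the values of Ube2c and Ccnb2 below show.

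The mitotic kinases were the role with the highest median log2 fold change of those with more than 2 tested genes, 0.26 over 7 genes, of which 6 were positive. Aurka, the kinase that matures centrosomes and builds the spindle, had 77.9, 83.9 and 99.8 CPM in S34F and 63.4, 67.2 and 69.4 CPM in WT. All S34F libraries lay above all WT libraries, and the log2 fold change was 0.39 ± 0.12 (SE, n = 3 per group, edgeR adjusted p = 0.120). Plk1, the Polo kinase of mitotic entry and cytokinesis, stood at 90.2, 86.8 and 112 CPM in S34F and 74.7, 74.0 and 74.7 CPM in WT. Its S34F libraries also lay above the WT libraries, with S34F replicate 3 apart from the other S34F libraries (log2 fold change 0.37 ± 0.12, adjusted p = 0.135).

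Bub1b encodes BUBR1, the checkpoint protein that holds back anaphase until chromosomes are attached. It had 209, 184 and 188 CPM in S34F and 157, 153 and 155 CPM in WT, again without overlap (log2 fold change 0.32 ± 0.10, SE, n = 3 per group, edgeR adjusted p = 0.126). The other 4 kinases overlapped between the groups. Their log2 fold changes were 0.26 for Aurkb, the kinase of the chromosomal passenger complex, 0.15 for the centrosome kinase gene Nek2, 0.13 for the checkpoint kinase gene Bub1 and -0.19 for Ttk, which encodes the checkpoint kinase MPS1.

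The 4 partners of these kinases had log2 fold changes from -0.14 to 0.27, and none passed the test. Incenp, the scaffold that activates Aurora B, had the smallest p of the 4. It was counted at 188, 225 and 224 CPM in S34F and at 210, 159 and 159 CPM in WT. WT replicate 1 lay among the S34F libraries (log2 fold change 0.27 ± 0.14, SE, n = 3 per group, edgeR adjusted p = 0.308). Mad2l1, which encodes the checkpoint protein MAD2, had a log2 fold change of 0.01 with an interval of -0.22 to 0.23. Birc5 (survivin) and Bub3 stood at -0.10 and -0.14.

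Among the CDKs, Cdk4 and Cdk6, the alternative partners of D-type cyclins, had fold changes of opposite sign. Cdk4 was counted at 340, 265 and 314 CPM in S34F and at 278, 206 and 225 CPM in WT, so WT replicate 1 lay above S34F replicate 2 (log2 fold change 0.37 ± 0.15, SE, n = 3 per group, edgeR adjusted p = 0.189). Cdk6 was at 266, 237 and 255 CPM in S34F and 312, 308 and 298 CPM in WT, without overlap (log2 fold change -0.28 ± 0.10, adjusted p = 0.167). Cdk4 shares 19.7% of its exon bases with Tspan31 on the opposite strand, which averaged 57.1 CPM against 271 CPM of Cdk4. Tspan31 was at 66.1, 55.0 and 66.4 CPM in S34F and 51.8, 52.7 and 50.6 CPM in WT, also higher in S34F. The strand setting of the counting is not given in the sources used here, and the part of Tspan31 in the Cdk4 counts was not tested.

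The ratio of Cdk4 to Cdk6 within a library does not depend on how libraries are scaled. Per kilobase of exon the S34F libraries had ratios of 5.51, 4.82 and 5.31 and the WT libraries of 3.84, 2.88 and 3.25. The groups did not overlap in this ratio, which was chosen after the values had been seen and was not tested. The ratios of Aurka to Aurkb and of Ccnd2 to Ccnd3, computed in the same way, did overlap between the groups. Cdk4 has 53.3% GC and Cdk6 45.1%. With the GC trend of each library removed, their log2 fold changes were smaller in size, at 0.28 and -0.20. Cdk1, the kinase of mitosis, and Cdk2 had log2 fold changes of 0.06 (interval -0.22 to 0.35) and 0.17 (interval -0.08 to 0.42).

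Of the 7 cyclins tested, 4 had positive and 3 negative log2 fold changes, with a median of 0.02, and none passed the test. Ccnb2, one of the B-type cyclins that activate Cdk1, stood lowest, at 82.7, 122 and 113 CPM in S34F and 120, 153 and 160 CPM in WT. The groups overlapped, since WT replicate 1 lay below S34F replicate 2 (log2 fold change -0.45 ± 0.17, SE, n = 3 per group, edgeR adjusted p = 0.176). Ccnb1, the other mitotic B-type cyclin, had a log2 fold change of 0.12 (interval -0.14 to 0.38), and together with 4 near-identical copies it had 194, 188 and 173 CPM in S34F and 151, 185 and 179 CPM in WT. Per kilobase the ratio of Ccnb1 to Ccnb2 was 0.840, 0.548 and 0.549 in S34F and 0.451, 0.427 and 0.397 in WT, again a ratio chosen after its values were seen.

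Ccna2, the cyclin of S phase and G2, was almost equal, at 192 ± 23.5 CPM in S34F and 190 ± 5.56 CPM in WT (SD, n = 3). Of the D-type cyclins, which cytokines induce, Ccnd2 was the most abundant per kilobase, with 37.8 TMM-normalised CPM per kilobase of exon (RPKM) over all libraries. Ccnd3 followed with 19.4 RPKM. Ccnd1 had 9, 7 and 3 counts in S34F and 5, 7 and 6 counts in WT and was the gene that could not be tested. The S34F libraries were uneven for Ccnd2, at 378, 286 and 446 CPM, whereas the WT libraries stood at 338, 349 and 338 CPM. The E-type cyclins of the G1/S transition had log2 fold changes of 0.17 for Ccne1 and -0.16 for Ccne2, with the groups overlapping in both. Ccne2 shares 17.4% of its exon bases with Ints8 on the opposite strand, whose mean of 84.6 CPM exceeded the 67.2 CPM of Ccne2. Ints8 was at 80.5, 77.8 and 69.5 CPM in S34F and 90.1, 92.7 and 97.1 CPM in WT. The part of Ints8 in the Ccne2 counts was not tested.

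All 5 genes that trigger anaphase and mitotic exit had positive log2 fold changes, from 0.09 to 0.39, and none passed the test. With the GC trend of each library removed, Cdc20, Fzr1 and Espl1 turned negative, at -0.045, -0.032 and -0.052, while Ube2c stood at 0.25 and Pttg1 at 0.27. Ube2c, the ubiquitin-conjugating enzyme of the anaphase-promoting complex, was at 197, 145 and 175 CPM in S34F and 120, 130 and 145 CPM in WT. S34F replicate 2, at 144.6 CPM, lay just below WT replicate 3, at 144.9 CPM (log2 fold change 0.39 ± 0.14, SE, n = 3 per group, edgeR adjusted p = 0.156). Pttg1, which encodes securin, and Fzr1, the activator CDH1 of late mitosis and G1, did not overlap between the groups. Their log2 fold changes were 0.21 and 0.16 with adjusted p-values of 0.391 and 0.390. Cdc20, the activator of early mitosis, and Espl1, the protease separase that cuts cohesin, had log2 fold changes of 0.09 each.

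Centromere proteins, motors and spindle factors split by sign, with 4 positive and 4 negative log2 fold changes and a median of -0.05. Tpx2, which activates Aurora A on the spindle, varied little within each group. It was counted at 240, 243 and 251 CPM in S34F and at 201, 203 and 206 CPM in WT (log2 fold change 0.27 ± 0.10, SE, n = 3 per group, edgeR adjusted p = 0.158). The groups did not overlap. Cenpf, a large protein of the outer kinetochore, was the lowest of the tested genes per kilobase, at 8.96 RPKM, and had the most negative log2 fold change.

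Cenpf had 90.2, 138 and 117 CPM in S34F and 118, 184 and 182 CPM in WT, so that WT replicate 1 lay among the S34F libraries (log2 fold change -0.49 ± 0.21, SE, n = 3 per group, edgeR adjusted p = 0.211). The kinetochore motor gene Cenpe followed the same libraries, at 136, 176 and 161 CPM in S34F and 148, 224 and 229 CPM in WT (log2 fold change -0.35 ± 0.18, adjusted p = 0.299). Without WT replicate 1, Cenpf and Cenpe were called lower, at -0.67 and -0.52 on the log2 scale (edgeR adjusted p = 0.045 and 0.0428). The WT group then holds only its closest pair, and over the 16 alternatives tried the adjusted p ran from 0.0182 to 0.507 for Cenpf and from 0.0428 to 0.656 for Cenpe. Among the motors, the log2 fold changes were -0.25 for Kif2c, which depolymerises microtubules, -0.12 for Kif11, which pushes spindle poles apart, and 0.04 and 0.03 for Kif20a and Kif23 of the cytokinesis midzone. The histone H3 variant of centromeres, Cenpa, stood at 0.14. Kif20a shares 29.3% of its exon bases with Cdc23 on the opposite strand, whose mean of 112 CPM exceeded the 76.5 CPM of Kif20a.

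Top2a and Mki67 were the most abundant of all these genes, at 109.4 and 109.2 RPKM. Mki67 encodes Ki-67, which coats mitotic chromosomes and is the usual marker of proliferating cells. It was counted at 740, 1051 and 1068 CPM in S34F and at 1166, 1270 and 1300 CPM in WT. All S34F libraries lay below all WT libraries, S34F replicate 1 by the widest margin (log2 fold change -0.39 ± 0.16, SE, n = 3 per group, edgeR adjusted p = 0.197). Top2a, the topoisomerase that untangles sister chromatids, was at 918, 1142 and 970 CPM in S34F and 890, 1000 and 994 CPM in WT, which overlapped (log2 fold change 0.07 ± 0.13, adjusted p = 0.781).

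**Figure D2:**
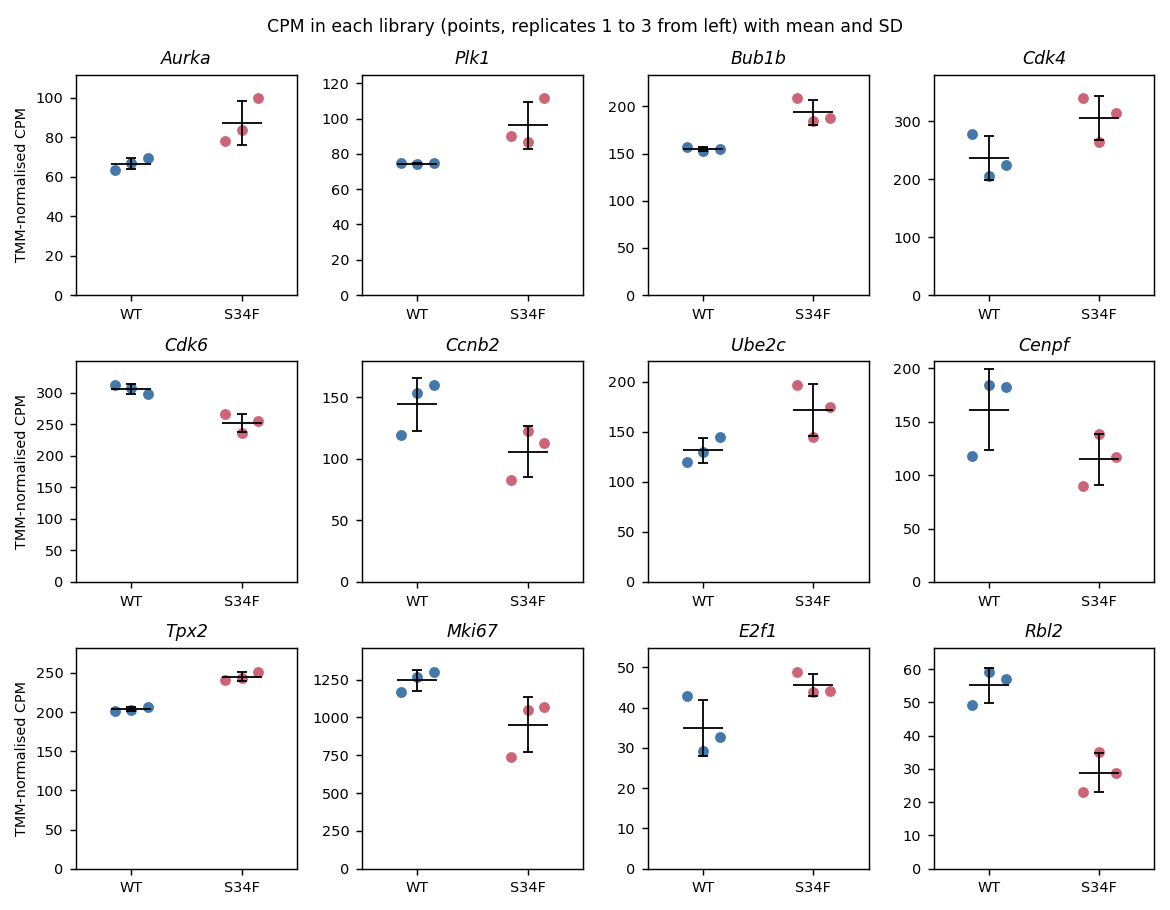
TMM-normalised CPM (y axis, from 0) in each of the 3 WT and 3 S34F libraries (x axis) for the 11 genes with an unadjusted p under 0.05 and for Rbl2, with the mean (line) and SD (bar). Tpx2 and Plk1 show the tightest WT libraries, Mki67 and Cdk6 lie lower in all S34F libraries, and Rbl2 shows the largest separation, 28.9 against 55.1 CPM on average.

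For all 3 CDK inhibitors the SD of the S34F libraries exceeded the difference of the group means. Cdkn1b, which encodes p27, had the smallest p of the 3, at 41.4, 59.3 and 68.4 CPM in S34F and 43.7, 69.2 and 74.8 CPM in WT (log2 fold change -0.15 ± 0.23, SE, n = 3 per group, edgeR adjusted p = 0.747). Cdkn2c (p18) and Cdkn2d (p19), inhibitors of Cdk4 and Cdk6, spread widely over the S34F libraries. Cdkn2c was at 25.4, 61.7 and 40.6 CPM and Cdkn2d at 21.7, 51.1 and 30.9 CPM in S34F, while their WT libraries lay between 37.3 and 45.1 CPM and between 27.2 and 36.0 CPM. S34F replicate 2 was thus the highest and S34F replicate 1 the lowest of all 6 libraries for both inhibitors.

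In the RB and E2F group, E2f1, the E2F factor that drives S-phase genes, was counted at 48.9, 43.8 and 44.2 CPM in S34F and at 42.8, 29.3 and 32.7 CPM in WT. The groups did not overlap, although WT replicate 1 came within about 1 CPM of S34F replicate 2 (log2 fold change 0.39 ± 0.16, SE, n = 3 per group, edgeR adjusted p = 0.193). Without WT replicate 1 it was called higher, with a log2 fold change of 0.56 (adjusted p = 0.0363, with a range of 0.0363 to 0.559 over the 16 alternatives). E2f3 stood at 0.20 without overlap. E2f2 was at 111 CPM in S34F replicate 2 but at 50.8 and 52.9 CPM in S34F replicates 1 and 3, on either side of the 72.6 to 74.4 CPM of the WT libraries. Rb1 itself, the brake on E2F, had 70.6, 119 and 93.3 CPM in S34F and 62.3, 120 and 113 CPM in WT, with replicate 1 lowest in each group.

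Of the 44 tested genes 10 had groups that did not overlap, 8 with S34F higher and 2 with S34F lower. That is 22.7%, against 27.1% of all genes tested (14% higher and 13.1% lower). The 8 were Aurka, Plk1, Bub1b, Fzr1, Pttg1, Tpx2, E2f1 and E2f3, and the 2 were Cdk6 and Mki67. The count was 18 without S34F replicate 1, 20 without S34F replicate 2 and 21 without WT replicate 1. Over all genes tested the shares in these settings, which have fewer libraries to overlap, were 35.1%, 42.1% and 51.4%.

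Single S34F libraries stood at the ends of the range more often than among all genes. S34F replicate 2 was the highest of the 6 libraries for 17 of the 44 genes (38.6%), against 17.5% of all genes tested. S34F replicate 1 was the lowest for 19 of 44 (43.2%), against 20.9% of all genes tested, and for 7 of the 8 centromere, motor and spindle genes. Over the 29 genes that peak in G2 or mitosis, log2 levels minus the WT mean averaged -0.14, 0.16 and 0.08 in the S34F libraries and -0.07, 0.02 and 0.05 in the WT libraries. For the 5 G1/S genes the averages were -0.14, 0.44 and -0.18 in S34F and 0.20, -0.12 and -0.08 in WT. In both classes the S34F libraries lay on either side of the WT mean. For the other 10 genes all S34F libraries lay slightly above it, at 0.04, 0.02 and 0.06, with the WT libraries at -0.08, 0.04 and 0.04. The source of the spread was not tested.

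**Figure D3:**
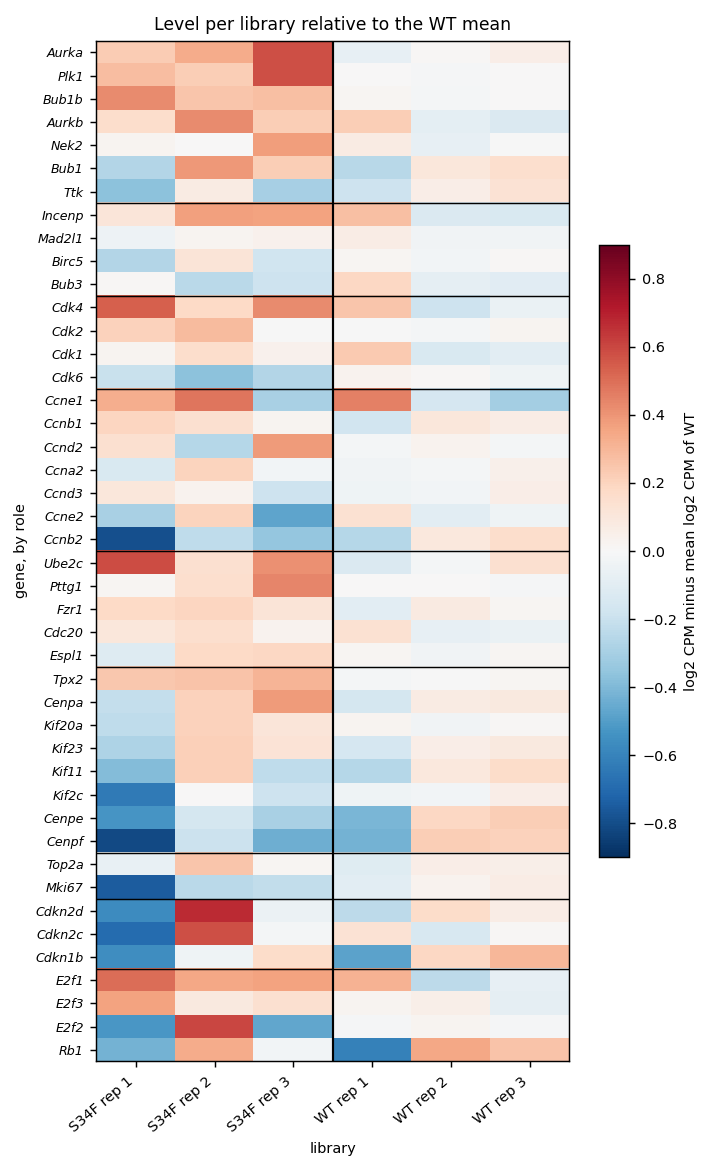
Colour shows log2 CPM minus the mean log2 CPM of the WT libraries for each of the 44 tested genes (rows, by role) in each library (columns, S34F left and WT right of the line). S34F replicate 1 is blue for most centromere, motor and inhibitor genes and S34F replicate 2 is red for Cdkn2c, Cdkn2d and E2f2, while Aurka, Plk1, Bub1b and Tpx2 are red in all S34F libraries.

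The fold changes of these genes varied with the base composition and the length of their transcripts. Across the 44 genes the log2 fold change and the GC content of the longest transcript had a Spearman's rho of 0.52, against 0.32 across 13433 genes tested with known GC content. For exon length rho was -0.47 across the 44 genes and -0.13 across all genes tested with a known length. These are descriptions across genes, which share the same 6 libraries and are not independent replicates. Cenpf and Cenpe had 43.3% and 43.0% GC, and Plk1 and E2f1 had 56.0% and 58.3%. With the GC trend of each library removed rho was 0.010 and 0 of the 44 genes were called. The log2 fold change then went from 0.39 to 0.22 for E2f1, from 0.37 to 0.23 for Plk1 and from -0.49 to -0.37 for Cenpf, whereas Ccnb2 kept its value of -0.45 and Aurka went from 0.39 to 0.33. The log2 fold change became smaller in size for 25 of the 44 genes and larger for the others, among them Bub1, from 0.13 to 0.30, and Mad2l1, from 0.01 to 0.19.

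**Figure D4:**
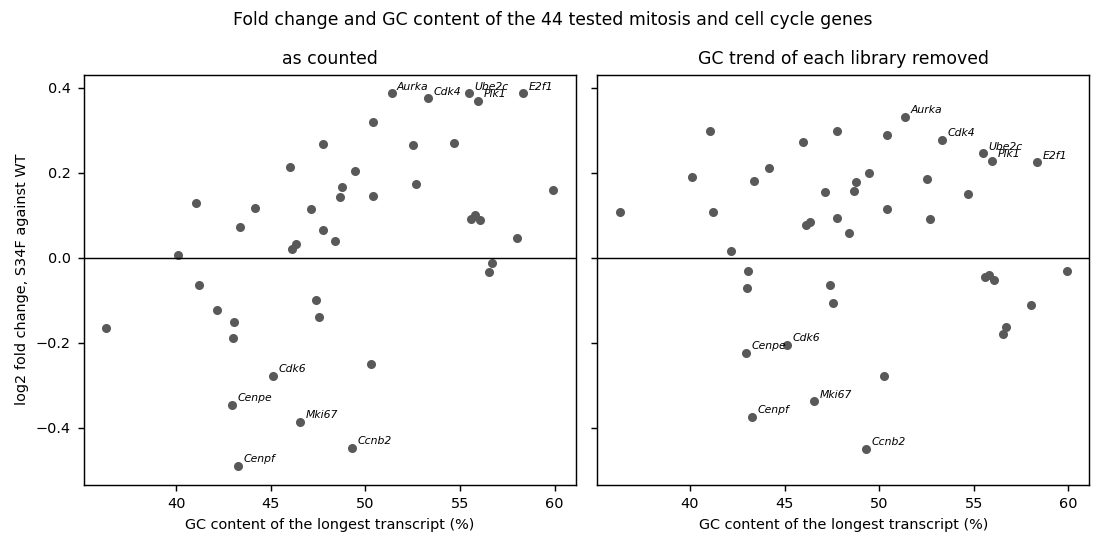
GC content of the longest transcript in percent (x axis) against the log2 fold change of S34F to WT (y axis) for the 44 tested genes, as counted (left) and with the GC trend of each library removed (right). The points rise from left to right in the left panel, with rho 0.52, and show no slope in the right panel, with rho 0.010.

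A further 138 genes of mitosis and the cell cycle were listed by function in 7 groups from kinetochore proteins to the DREAM complex. The list was made with earlier results of these data known. Of the 135 that could be tested, 0 rose and 1 fell, and 134 did not pass, with a median log2 fold change of -0.01. The share called was 0.741%, below the 2.18% of all genes tested. The unadjusted p was under 0.05 for 24 (17.8%, against 22% of all genes tested). The gene that fell was Rbl2 (ENSMUSG00000031666, chromosome 8, 91070057 to 91123844, mm10), which encodes p130, the RB relative that holds E2F target genes silent in resting cells as part of DREAM. Rbl2 was counted at 23.1, 34.9 and 28.7 CPM in S34F and at 49.3, 59.1 and 56.9 CPM in WT, a fall to 0.525 of the WT level (log2 fold change -0.93 ± 0.16, SE, n = 3 per group, edgeR adjusted p = 0.0323).

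The call of Rbl2 did not hold without S34F replicate 1, S34F replicate 3, WT replicate 2 or WT replicate 3, where the adjusted p was 0.100, 0.105, 0.133 and 0.137, nor with WT replicates 2 and 3 summed into 1 library, where it was 0.132. The log2 fold change stayed between -1.09 and -0.80 over all 16 alternatives, and the adjusted p ran from 4.60e-05 to 0.137. Rbl2 shares 9.17% of its exon bases with Aktip on the opposite strand, which averaged 18.3 CPM. Rb1 (above) and Rbl1, the third gene of this family (p107), did not pass, at -0.06 and 0.03 on the log2 scale (edgeR adjusted p = 0.913 and 0.917).

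In each of the other 6 groups the gene with the smallest p did not pass. Cdkn1a, which encodes the CDK inhibitor p21, came closest, at 299, 302 and 282 CPM in S34F and 225, 165 and 164 CPM in WT (log2 fold change 0.67 ± 0.14, SE, n = 3 per group, edgeR adjusted p = 0.0532). Its adjusted p was below 0.05 under 5 of the 16 alternatives, with a range of 0.00153 to 0.245. Smc3, a ring subunit of cohesin, followed with 217, 251 and 207 CPM in S34F and 311, 324 and 337 CPM in WT (log2 fold change -0.53, adjusted p = 0.0569).

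A further 3 had adjusted p-values between 0.0695 and 0.0722 in the edgeR test. Ccnf, a cyclin that serves as a ubiquitin ligase subunit, had a log2 fold change of 0.43, and Kifc1, a motor that clusters spindle poles, of 0.63. The latter has a close copy, Kifc5b, with 96.8% identity over 2312 bases and a mean of 51.4 CPM, so reads may be assigned to either. Ube2s, the enzyme that extends ubiquitin chains on targets of the anaphase-promoting complex, stood at 0.56. It overlaps Rpl28 on the opposite strand by 3.56% of its exon bases, and Rpl28 was counted at 844, 796 and 760 CPM in S34F and 602, 421 and 414 CPM in WT.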

How the data were processed

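The table that the authors deposited holds raw read counts for each Ensembl gene in each of the 6 libraries, matched to samples by genotype and replicate number. The submitters' processing notes name HISAT2 and featureCounts with mm10. For the annotation release, strandedness and multiply mapped reads, the choice is not given in the sources used here. The libraries had totals of 16509899 to 19129250 counts.

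Counts were tested over all genes in edgeR 4.0.16 (R 4.3.3) with TMM factors, filterByExpr and a two-sided quasi-likelihood test (robust) on genotype alone, with 4 residual degrees of freedom. Each standard error was taken as the size of the log2 fold change over the square root of F, and 95% intervals used the moderated degrees of freedom. The scripts were tested on simulated data, with changed genes drawn from all those tested and libraries drawn independently. Of 50 genes changed 1.25-fold, 0 were called. Of 50 changed 1.5-fold, 7 were called, and of 50 changed 2-fold, 34 were called. Differences of the size estimated for the mitosis and cell cycle genes would thus mostly go uncalled.

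Coordinates, exon length (union of exons) and GC content came from GENCODE M21 on the same build. GENCODE transcripts with at least 95% identity over 200 bases counted as copies. The genes and lists were chosen with earlier results of these data known. Values per library were given for genes with an unadjusted p under 0.05, the smallest p in each role and the highest and lowest level per kilobase. In the pathway list the called gene, or the smallest p of a group without one, was named, except in 1 group whose gene is not reported here. The alternatives replaced TMM by RLE factors, by upper-quartile factors or by library totals alone, or used 2 other count filters, DESeq2 1.42.0, limma-voom (limma 3.58.1), the replicate number as a block, each library left out, WT replicates 2 and 3 summed, and loess offsets on GC content (span 0.5).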

Additional observations from a re-analysis of the deposited data

How the results depend on the processing

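With the normalisation, the count filter or the tool changed, with WT replicates 2 and 3 summed and with the GC trend removed, 0 of the mitosis and cell cycle genes were called. Some were called in 2 of the 16 alternatives. With the replicate number as a block 5 of the 44 were called, where 1418 of all 13444 genes tested were. Without WT replicate 1 it was 3 of the 44, where 1177 of all 13837 genes tested were. Leaving out 1 library thus gave between 0 and 3. Of the 44 tested genes, 25 kept the sign of their log2 fold change in all 16, and so did all 11 with an unadjusted p under 0.05. Those 11 were picked by their p in the main fit on the same libraries, so their kept sign is no separate support. Over all genes the 293 calls of 13444 became 763 of 24480 without a count filter, 1216 with DESeq2 and 271 with limma-voom. They became 1418 with the replicate block, 176 with the GC trend removed and 20 with WT replicates 2 and 3 summed. With 1 library left out they were between 19 and 1177. The single call among the 135 genes tested in the pathway list became 5 without a count filter, 11 with DESeq2 and 2 with limma-voom. It became 17 with the replicate block, 0 with WT replicates 2 and 3 summed and between 0 and 12 with 1 library left out. The count of genes whose groups did not overlap, 10, was 8 with upper-quartile factors and with library totals alone, against 27.1% and 26.6% of all genes. With 1 library left out it was between 10 and 21 of the 44, where the shares of all genes were between 30.5% and 51.4%. The cause of these changes was not tested, except that fewer libraries overlap less often by construction.

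The replicate block called Aurka and Cdk4 higher and Ccnb2, Cenpf and Mki67 lower (edgeR adjusted p = 0.0460, 0.0358, 0.0213, 0.0182 and 0.0473), at 0.38, 0.38, -0.45, -0.48 and -0.40 on the log2 scale. The numbers are not said to pair the libraries, so they were not taken as pairs in the main fit. Deviations from the group means correlated by 0.31, 0.15 and 0.06 between libraries of the same number. S34F replicate 1 correlated by -0.24 and -0.22 with WT replicates 2 and 3. S34F replicate 2 correlated by 0.15 with each of WT replicates 2 and 3, and S34F replicate 3 by 0.07 and 0.06. WT replicates 2 and 3 are too alike for these values to tell pairs apart. A factor shared by replicate 1 of both groups was not tested.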

Other observations

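Of the 18 condensin and cohesin genes tested in the pathway list, 15 had a negative and 3 a positive log2 fold change, and edgeR called 0 of them. That is 83.3% negative, against 49.9% of all genes tested, in a group picked out of 7 after the values were seen. The median was -0.13, beside 0.00052 over all genes tested. The unadjusted p was under 0.05 for 3 (16.7%, against 22% of all genes tested), named after their values were seen: Smc3, the cohesin subunit gene Stag1 and Pds5b, which regulates the release of cohesin, with log2 fold changes of -0.53, -0.38 and -0.32 (edgeR adjusted p = 0.0569, 0.148 and 0.159). With the GC trend removed the values were -0.39, -0.24 and -0.15 (adjusted p = 0.117, 0.322 and 0.486), and the adjusted p over the 16 alternatives ran from 0.00135 to 0.241 for Smc3, from 0.0468 to 0.433 for Stag1 and from 0.0585 to 0.486 for Pds5b.

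The order of the libraries seen among the mitosis and cell cycle genes was also present in the pathway list. S34F replicate 2 was the highest of the 6 libraries for 51 of 135 genes (37.8%) and S34F replicate 1 the lowest for 58 of 135 (43.0%), against 17.5% and 20.9% of all genes tested. Per kilobase the ratio of Top2a to Mki67 had values of 1.38, 1.21 and 1.01 in the S34F libraries and of 0.852, 0.879 and 0.853 in the WT libraries. This ratio was picked after its values were seen, and it was not tested. Other ratios computed in the same way overlapped between the groups. Aurka to Aurkb had 0.952, 0.849 and 1.17 in S34F and 0.743, 0.971 and 1.04 in WT. Ccnd2 to Ccnd3 had 1.92, 1.52 and 2.76 in S34F and 1.89, 1.93 and 1.76 in WT.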
